A study of Mus musculus with 8 samples.

Results

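The genes described here are 38 genes of antioxidant defence and glutathione metabolism, chosen by gene symbol from the 22518 genes of the deposited table, and all 38 were found there. Whole hearts of C57BL/6 mice were collected at postnatal day 12, and RNA was sequenced in 4 libraries from wild type littermates and in 4 from mice without PHD2 and PHD3, oxygen-sensing prolyl hydroxylases that mark HIF for degradation, in their endothelial cells. The genotype is given only as PHD2/3 endothelial knockout. The sources used here do not give the Cre driver, the alleles, the sex of the animals or whether the wild type littermates carried floxed alleles. Values are FPKM (fragments scaled to transcript length and to the number of mapped fragments) as deposited by the authors, with nearly the same set of values in every library, as quantile normalisation leaves it, and the sequencing depth is unknown. Log2 changes are knockout minus wild type on the log2(FPKM + 1) scale ± SE, which understates the change of low genes. A gene was called where its adjusted p in limma, corrected over the 11390 genes whose mean reached 1 FPKM, was under 0.05. All 38 genes passed that filter. Whether every library came from its own animal is not stated, and p-values therefore cover only the spread among these 8 samples, which may be technical. Where 4 values are listed for a group, they are in the order of replicates 1 to 4.

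Cells continuously form superoxide and hydrogen peroxide, mostly as by-products of respiration, and the heart with its dense mitochondria is a large source of both. Superoxide dismutases turn superoxide into hydrogen peroxide, which catalase, glutathione peroxidases and peroxiredoxins then reduce. Glutathione and thioredoxin supply the electrons for the peroxidases and are themselves recharged by reductases that use NADPH from the pentose phosphate pathway and malic enzyme. The transcription factor NRF2, the product of Nfe2l2, is held in the cytoplasm and marked for degradation by KEAP1. When KEAP1 is modified by reactive molecules, NRF2 enters the nucleus, pairs with small MAF proteins and binds the antioxidant response element of many of these genes.

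The core of that element was searched in the RefSeq promoter table of build GRCm38.p6, whose windows run from 250 bases before to 50 bases after each listed start and which held 33 of the 38 genes. The letters TGACNNNGC, on either strand, were found in a window of 9 of these 33 genes (27.3%) and in 17.4% of the 8354 tested genes that the table held. Across all 32851 windows, 12.4% held the letters, and 9 of the 45 windows of these genes did (20%). The 9 matches are shown because they include Txnrd1 and Pgd, which rose in the knockout hearts. Each sequence is printed on the strand that reads TGACNNNGC, with those letters in capitals. The matches of Srxn1 and Pgd lie after the listed start, that of Me1 runs across it and the other 6 lie before it.
Nfe2l2, chr2:75704885-75704913, minus strand: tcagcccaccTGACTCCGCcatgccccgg
Gclm, chr3:122245413-122245441, minus strand: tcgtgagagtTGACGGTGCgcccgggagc
Txnrd1, chr10:82859104-82859132, minus strand: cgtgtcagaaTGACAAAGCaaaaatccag
Srxn1, chr2:152105542-152105570, minus strand: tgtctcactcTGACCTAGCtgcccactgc
Prdx1, chr4:116685456-116685484, minus strand: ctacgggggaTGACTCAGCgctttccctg
Sod1, chr16:90220696-90220724, minus strand: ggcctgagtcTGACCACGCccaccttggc
G6pdx, chrX:74428919-74428947, plus strand: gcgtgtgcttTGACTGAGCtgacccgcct
Pgd, chr4:149166061-149166089, minus strand: atttcagagcTGACATTGCactgatcgga
Me1, chr9:86695902-86695930, minus strand: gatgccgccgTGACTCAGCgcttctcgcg
Of these 9 genes, 2 rose (Txnrd1 and Pgd), 0 fell and 7 were not called, and their median log2 change was 0.09. Among all genes tested, 6.15% rose and 6.01% fell, and a count over 9 genes is too small to set against these shares. For Txnrd1, the stretch before the start that holds the match (chr10:82858956-82859178, plus strand) is also shown, with the match in capitals as it reads on this strand.
Txnrd1 promoter: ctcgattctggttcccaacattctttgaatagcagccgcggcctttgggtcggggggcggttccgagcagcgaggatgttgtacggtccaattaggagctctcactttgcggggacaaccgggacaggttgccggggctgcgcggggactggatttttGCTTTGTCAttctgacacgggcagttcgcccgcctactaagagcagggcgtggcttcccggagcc
The letters ACGTG, a form of the core of the hypoxia response element, which HIF binds, were found in 11 of the 33 genes (33.3%). They were found in 29.9% of the tested genes in the table, and other forms of the core were not searched. Of these 11 genes, 0 rose and 1, Gstp1, fell, against the same 6.15% and 6.01% of all genes tested. None of the matches to one motif overlapped a match to the other. A match is a run of letters and not a shown binding site.

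Of the 38 genes, 4 rose and 2 fell, while the other 32 were not called. The 4 that rose were the quinone reductase Nqo1, the glutathione transferase Gstm2, the cytosolic thioredoxin reductase Txnrd1 and the NADPH-forming enzyme Pgd, and the 2 that fell were the peroxiredoxin Prdx2 and the glutathione transferase Gstp1. Among all genes tested, 12.2% were called, 6.15% as higher and 6.01% as lower in the knockout hearts, and the 6 called among these 38 genes (15.8%) stood near that background. The groups did not overlap for 8 of the 38 genes (21.1%), against 20.7% of all genes tested. The median log2 change of the 38 genes was 0.04 and that of all genes -0.01, and the median size of a change, regardless of sign, was 0.12 and 0.16. At an unadjusted p under 0.05 there were 11 of the 38 genes and 3377 of all 11390, a similar share. All 6 called changes were small: on the log2(FPKM + 1) scale none reached 1.5-fold. Leaving out 1 library changed the number that rose to 1 when it was wild type replicate 2 and to 2 when it was knockout replicate 2 or wild type replicate 1 or 4. The number was 3 without wild type replicate 3 or knockout replicate 4, and 5 without knockout replicate 1. The number that fell was 0 without any 1 of the 4 wild type replicates or without knockout replicate 2 or 3, and 3 without knockout replicate 1 or 4.

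**Figure D1:**
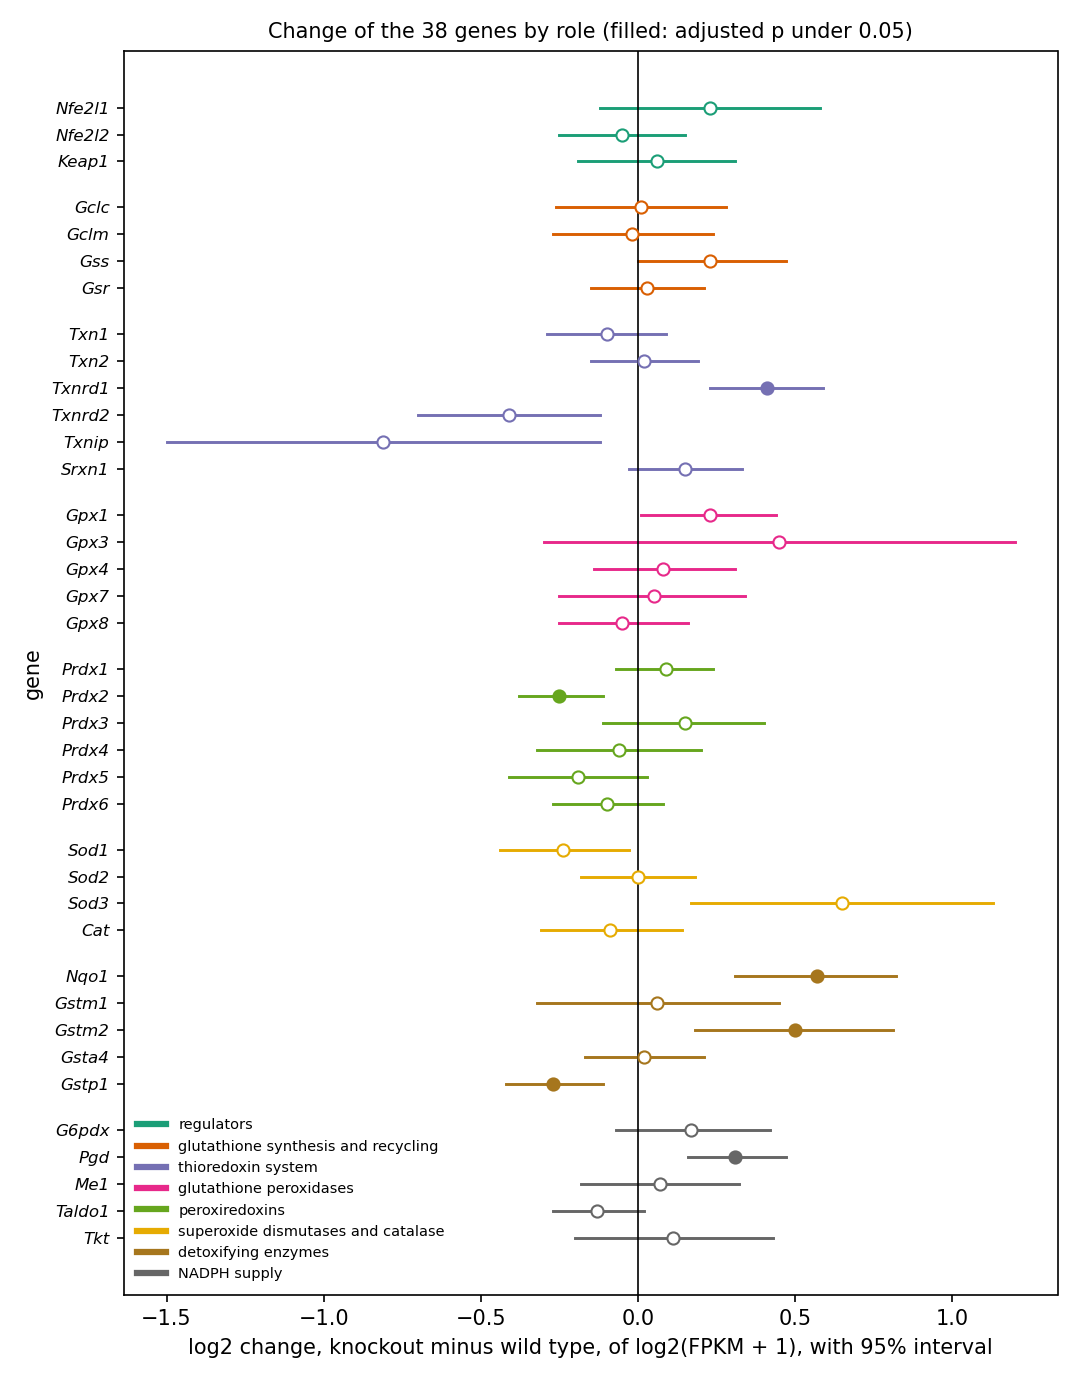
Log2 change (knockout minus wild type, of log2(FPKM + 1)) of the 38 genes, ordered and coloured by role, with horizontal lines for the 95% interval of each gene; filled points mark adjusted p under 0.05. The filled points are Txnrd1, Nqo1, Gstm2 and Pgd to the right of 0 and Prdx2 and Gstp1 to the left, and Txnip and Gpx3 have the widest intervals.

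Several measurements of the whole libraries bear on these values. The summed level of 8 fibroblast markers was 979 to 1090 FPKM in wild type and 766 to 794 FPKM in knockout hearts, and that of 9 macrophage markers 137 to 157 FPKM and 166 to 186 FPKM, both without overlap. Of these lists 3 of 8 fibroblast genes fell and 1 of 9 macrophage genes rose. Only Lyz2 of these 9 had no overlap, at 37.7 to 43.6 FPKM in wild type and 60.5 to 79.5 FPKM in knockout hearts. For 10 endothelial markers the sums were 564 to 677 FPKM and 502 to 598 FPKM, for 8 smooth muscle and pericyte markers 689 to 1140 FPKM and 674 to 960 FPKM, and for 9 cardiomyocyte markers 41200 to 47200 FPKM and 33900 to 42600 FPKM. Of the 10 endothelial genes 3 fell, of the smooth muscle genes 1 rose and of the cardiomyocyte genes 1 fell. Among all genes tested, 6.15% rose and 6.01% fell, and counts over such short lists are too small to set against these shares. Without overlap, 4 endothelial genes were lower and 1, Pecam1, was higher, at 89.7 to 100 FPKM in wild type and 102 to 119 FPKM in knockout hearts. The cardiomyocyte sums lean on genes at the highest ranks, where quantile normalisation gives every library the same set of values. Myl2, for example, took only the values 7540, 11500 and 14900 FPKM. Erythroid markers (7 genes) summed to 2220 to 10600 FPKM in wild type and 366 to 2780 FPKM in knockout hearts, and 0 of the 5 tested were called by limma, with all 5 at an unadjusted p under 0.05. Adipocyte markers (6 genes) ran from 0 to 14.3 FPKM and from 0 to 35.3 FPKM, with the highest sum in knockout replicate 2. The 10 airway and lung markers summed to 1870 FPKM in wild type replicate 4 and to between 0.502 and 1.49 FPKM in the other 7 libraries. None of these marker genes that the table holds was at 0 in all 8 libraries. In whole hearts, fewer cells of a type and less RNA per cell cannot be told apart, and the part of these markers in the results was not tested except where a value is given. Neither targeted gene had a knockout value below its wild type range, with Egln1 (PHD2) at 45.2 to 57.9 FPKM in wild type and 52.6 to 63.5 FPKM in knockout hearts and Egln3 (PHD3) at 18.0 to 38.7 and 32.6 to 52.8 FPKM. A gene-level value in whole hearts does not check an endothelial deletion, so the genotype rests on the labels. Exons of 10 of the 38 genes, among them Txnip and Prdx2, overlap those of another annotated gene in GENCODE M21.

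The regulators of the response did not pass the test. Nfe2l2, which encodes NRF2, measured 29.5, 29.7, 30.7 and 27.6 FPKM across the wild type hearts, compared with 33.4, 27.5, 25.6 and 27.5 FPKM across the knockouts. Knockout replicate 1 was above all wild type hearts and the other 3 below them (log2 change -0.05 ± 0.09, 95% interval -0.25 to 0.15, adjusted p = 0.760). Keap1, the adaptor that targets NRF2 for degradation, was within a narrow range of 10.6 to 11.0 FPKM in the wild type hearts. In the knockout hearts it was at 9.82, 9.96, 11.3 and 14.3 FPKM, on both sides of that range (adjusted p = 0.759). Nfe2l1, whose product NRF1 binds the same element and also controls proteasome genes, was at 71.9 to 112 FPKM in wild type and 91.7 to 120 FPKM in knockout hearts (log2 change 0.23 ± 0.16, adjusted p = 0.355). By limma, 0 of these 3 genes had an unadjusted p under 0.05. Protein stability and location, through which NRF2 is controlled, are not measured by RNA.

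Genes of glutathione synthesis and recycling were also not called, and 0 of 4 had an unadjusted p under 0.05 by limma. Gclc and Gclm encode the catalytic and modifier subunits of glutamate-cysteine ligase, the rate-limiting step of glutathione synthesis. Gclc averaged 4.20 ± 0.770 FPKM (SD, n = 4) in wild type against 4.23 ± 0.606 FPKM in knockout hearts, with a 95% interval of the log2 change from -0.26 to 0.28. Gclm was at 14 ± 1.02 and 14 ± 2.52 FPKM, with an interval from -0.27 to 0.24. Gss, the synthetase of the second step, measured 6.92, 7.63, 6.85 and 7.88 FPKM across the wild type hearts, compared with 8.24, 9.09, 7.41 and 10.6 FPKM across the knockouts. Knockout replicate 3 lay inside the wild type range and the other 3 above it (log2 change 0.23 ± 0.11, adjusted p = 0.175). Its exons overlap those of Acss2 on the opposite strand, and without strand information such reads cannot be told apart. Gsr, the reductase that regenerates glutathione with NADPH, averaged 7.69 ± 0.357 FPKM in wild type against 7.90 ± 0.707 FPKM in knockout hearts (adjusted p = 0.824).

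In the thioredoxin system, the reductases of cytosol and mitochondria had changes of opposite sign, and the cytosolic one passed the test. Txnrd1, the cytosolic selenoenzyme that recharges thioredoxin (chromosome 10, 82833951 to 82897712 in mm10), measured 12.1, 11.0, 13.2 and 11.4 FPKM across the wild type hearts. The knockout replicates were at 15.8, 15.2, 16.7 and 17 FPKM, all above the highest wild type heart. This rise was 1.35-fold in mean FPKM (log2 change 0.41 ± 0.08, adjusted p = 0.0122). It was called with each of the 8 libraries left out in turn, with an adjusted p of at most 0.0460 over the alternatives that refitted the data. Txnrd2, the mitochondrial reductase (chromosome 16, 18426384 to 18479073), measured 18.7, 22.8, 20.1 and 22.4 FPKM across the wild type hearts, compared with 19.8, 15.9, 12.4 and 14.6 FPKM across the knockouts. Knockout replicate 1 lay inside the wild type range and the other 3 below it (log2 change -0.41 ± 0.13, adjusted p = 0.0675). Without knockout replicate 1 the gene was called lower (log2 change -0.52, adjusted p = 0.0154). Over all alternatives its adjusted p ran from 0.0154 to 0.193.

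Txn1 and Txn2, the cytosolic and mitochondrial thioredoxins, did not pass the test. Txn1 averaged 85.8 ± 5.58 FPKM in wild type against 80 ± 6.75 FPKM in knockout hearts (95% interval of the log2 change -0.29 to 0.09), and Txn2 averaged 154 ± 10.7 and 156 ± 9.17 FPKM (-0.15 to 0.19). Srxn1, which repairs overoxidised peroxiredoxins, was at 6.16 to 6.72 FPKM in wild type and 6.44 to 7.85 FPKM in knockout hearts (adjusted p = 0.246). Txnip, an arrestin-like protein that binds thioredoxin and restrains glucose uptake, spread more widely than any other of the 38 genes, with a 4.02-fold range over the 8 libraries. It measured 300, 159, 231 and 404 FPKM across the wild type hearts, compared with 100, 140, 152 and 219 FPKM across the knockouts. Knockout replicates 1 to 3 lay below every wild type heart, while knockout replicate 4 was above wild type replicate 2. The mean was 1.79-fold lower in the knockout hearts, but the gene did not pass the test (log2 change -0.81 ± 0.30, adjusted p = 0.114). The Y chromosome gene Ddx3y reached 14 and 15 FPKM in wild type replicates 1 and 4, which had the higher Txnip values of their group, and 0.138 and 1.1 FPKM in wild type replicates 2 and 3. The same gene was at 0.104 FPKM in knockout replicate 1, the lowest in Txnip, and at 16.8 to 22.2 FPKM in the other knockout hearts. With the Ddx3y level as a covariate Txnip was called lower (log2 change -1.03, adjusted p = 0.00755), and its adjusted p over all alternatives ran from 0.00755 to 0.224. Exons of Txnip overlap those of the antisense gene Gm15441.

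**Figure D2:**
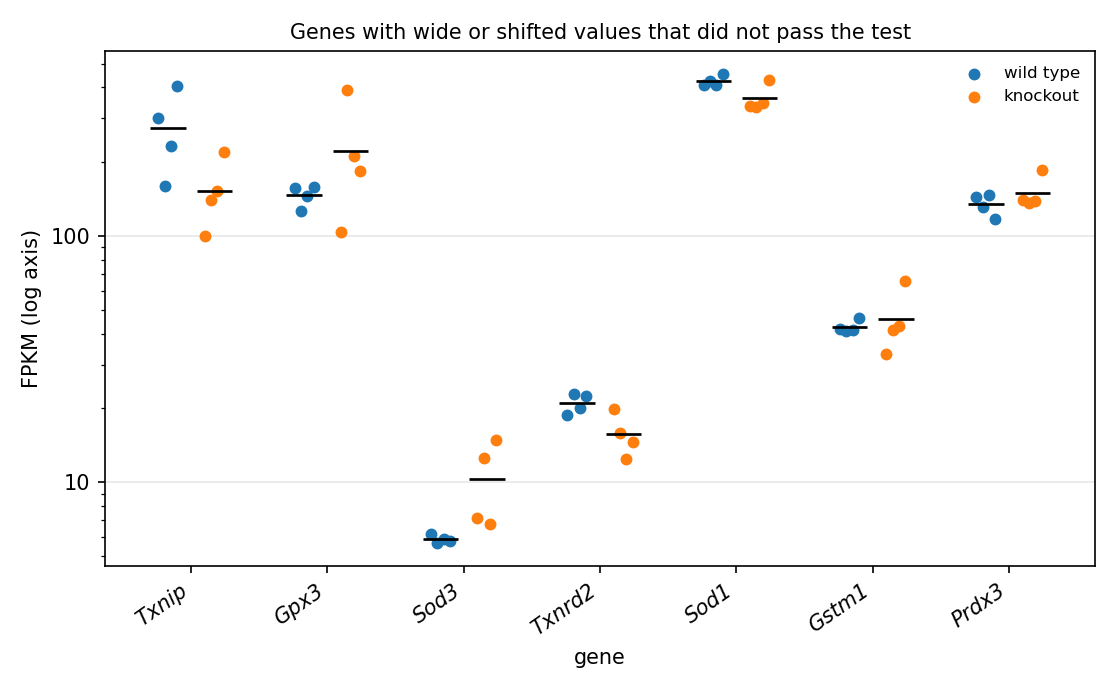
Levels (FPKM, log axis) of 7 genes with wide or shifted values that did not pass the test; each point is 1 heart library in the order of replicates 1 to 4, wild type in blue and knockout in orange, and black lines are means of 4. Txnip is lower in knockout replicates 1 to 3 than in any wild type heart, Gpx3 reaches 390 FPKM in knockout replicate 2, and the 4 knockout points of Sod3 all lie above its wild type points.

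Among the glutathione peroxidases 0 of 5 genes were called by limma, and 1, Gpx1, had an unadjusted p under 0.05. Gpx4, which reduces lipid peroxides in membranes, was the most abundant of the family per length, at 325 to 347 FPKM in wild type and 304 to 427 FPKM in knockout hearts (adjusted p = 0.600). Gpx1, the cytosolic and mitochondrial enzyme, measured 64.5, 77.3, 75.9 and 78.5 FPKM across the wild type hearts, compared with 77.7, 89.6, 81.5 and 98.7 FPKM across the knockouts. Only knockout replicate 1 lay inside the wild type range (log2 change 0.23 ± 0.10, adjusted p = 0.157). Gpx3, the secreted plasma enzyme, measured 157, 126, 145 and 158 FPKM across the wild type hearts, compared with 104, 390, 211 and 183 FPKM across the knockouts. Knockout replicate 1 was the lowest of the 8 libraries and the other 3 knockout hearts were the highest, and the gene did not pass the test (log2 change 0.45 ± 0.33, adjusted p = 0.402). Without knockout replicate 1 the log2 change was 0.76 with an adjusted p of 0.0589, and over all alternatives the adjusted p ran from 0.0589 to 0.759. The adipocyte marker sum was 35.3 FPKM in knockout replicate 2, where Gpx3 was highest, 19.1 FPKM in knockout replicate 3, 0 in knockout replicate 4 and 1.75 FPKM in knockout replicate 1. The part of these cells in the Gpx3 level was not tested. Gpx7 and Gpx8, peroxidases of the endoplasmic reticulum, were at 15.3 ± 1.87 and 31.4 ± 1.36 FPKM in wild type and at 16.0 ± 2.99 and 30.5 ± 3.60 FPKM in knockout hearts (adjusted p = 0.844 and 0.773).

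Of the 6 peroxiredoxins, thiol peroxidases that are recharged by thioredoxin or, for Prdx6, by glutathione, 1 fell and 5 did not pass the test. Prdx2, the most abundant of them per length in these hearts and a major protein of red blood cells (chromosome 8, 84969587 to 84974834), measured 411, 407, 402 and 431 FPKM across the wild type hearts. The knockout replicates were at 357, 337, 344 and 355 FPKM, all below the lowest wild type heart. The fall was 1.19-fold in mean FPKM (log2 change -0.25 ± 0.06, adjusted p = 0.0306). The summed erythroid markers were also lower in the knockout hearts, at 2220, 3790, 10600 and 5100 FPKM across the wild type hearts and 1150, 1940, 2780 and 366 FPKM across the knockouts, with overlap. Their part in the Prdx2 result was not tested. The call was lost without wild type replicate 1, 2, 3 or 4 (adjusted p = 0.0651, 0.0820, 0.0637 and 0.0756) and without knockout replicate 2 or 3 (0.0857 and 0.0735), with log2 changes between -0.26 and -0.22. The Ddx3y covariate (adjusted p = 0.0564) and a fit with replicate number as a block (0.112) also ended it. Adjusted p over all alternatives ran from 0.0119 to 0.112. Exons of Prdx2 overlap those of Junb and Rnaseh2a on the opposite strand.

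The other peroxiredoxins had smaller or less even differences. Prdx5, found in mitochondria, peroxisomes and cytosol, was at 262 to 302 FPKM in wild type and 212 to 288 FPKM in knockout hearts (log2 change -0.19 ± 0.10, adjusted p = 0.217). Prdx1, the cytosolic relative of Prdx2, was at 257 ± 14.3 and 273 ± 13 FPKM (log2 change 0.09 ± 0.07, adjusted p = 0.440). Prdx3, the mitochondrial enzyme, was at 117 to 146 FPKM in wild type hearts, at 136 to 140 FPKM in knockout replicates 1 to 3 and at 185 FPKM in knockout replicate 4 (adjusted p = 0.429). The intervals of the log2 change ran from -0.32 to 0.20 for Prdx4, of the endoplasmic reticulum, and from -0.27 to 0.08 for Prdx6.

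The superoxide dismutases and catalase had 0 of 4 genes called by limma, with 2, Sod1 and Sod3, at an unadjusted p under 0.05. Sod1, the copper-zinc enzyme of the cytosol and the gene with the highest wild type mean of all 38, measured 408, 427, 408 and 452 FPKM across the wild type hearts, compared with 335, 334, 346 and 429 FPKM across the knockouts. Knockout replicates 1 to 3 lay together below every wild type heart, and knockout replicate 4 inside the wild type range (log2 change -0.24 ± 0.09, adjusted p = 0.117). Without knockout replicate 4 Sod1 was called lower (log2 change -0.32, adjusted p = 0.0120), and adjusted p over all alternatives ran from 0.0120 to 0.244. The manganese enzyme of mitochondria, Sod2, was at 105 ± 5.47 and 105 ± 8.56 FPKM, with a 95% interval of the log2 change from -0.18 to 0.18. Sod3, the extracellular enzyme bound to vessel walls and matrix, measured 6.17, 5.69, 5.90 and 5.80 FPKM across the wild type hearts, compared with 7.18, 12.5, 6.77 and 14.8 FPKM across the knockouts. Every knockout heart was above every wild type heart, but knockout replicates 2 and 4 were far above replicates 1 and 3. The mean was 1.75-fold higher and did not pass the test (log2 change 0.65 ± 0.21, adjusted p = 0.0763). Sod3 was called higher without knockout replicate 1 (log2 change 0.78, adjusted p = 0.0340) or 3 (0.81, adjusted p = 0.0429), and adjusted p ran up to 0.180 over the alternatives. Cat, the peroxisomal catalase, averaged 77.4 ± 9.99 FPKM in wild type against 72.5 ± 5.23 FPKM in knockout hearts (adjusted p = 0.595).

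The detoxifying enzymes held 3 of the 6 called genes, with 2 raised and 1 lowered of 5, against 12.2% called among all genes tested. A count over 5 genes does not set this role apart. Nqo1, a reductase of quinones and a widely used reporter of NRF2 activity (chromosome 8, 107388225 to 107403206), measured 10.2, 8.49, 9.75 and 10.4 FPKM across the wild type hearts. In the knockout replicates it was at 14.4, 16.3, 12 and 17.1 FPKM, all above the wild type range. It had the largest called rise among the 38 genes, 1.54-fold in mean FPKM (log2 change 0.57 ± 0.11, adjusted p = 0.0144). The call was lost without wild type replicate 2 (log2 change 0.51, adjusted p = 0.0517) and in no other omission, and adjusted p over the alternatives ran from 0.00726 to 0.0517. The summed macrophage markers were also higher in every knockout heart (166 to 186 against 137 to 157 FPKM). Of the 9 macrophage genes, only Lyz2 was without overlap between the groups on its own. The part of these markers in the Nqo1 result was not tested. The letters TGACNNNGC were not found in the Nqo1 promoter window, and bases more than 250 before the listed start were not searched.

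Glutathione transferases join glutathione to electrophiles, and members of this family moved in both directions. Gstm2, a mu-class enzyme (chromosome 3, 107981702 to 107986453), measured 26.9, 26, 28.8 and 29.6 FPKM across the wild type hearts, compared with 32.1, 42.3, 34.2 and 52.8 FPKM across the knockouts, with no overlap. The rise was 1.45-fold and just within the threshold (log2 change 0.50 ± 0.14, adjusted p = 0.0499). Of the 8 omissions 7 ended this call, the exception being knockout replicate 1. Adjusted p was 0.0976, 0.137, 0.0913 and 0.0890 without wild type replicates 1 to 4 and 0.117, 0.0572 and 0.0503 without knockout replicates 2 to 4. The Ddx3y covariate (0.0790), the lack of a filter (0.0867) and a fit without the robust (0.0519) or the trend option (0.0544) also ended it. So did a fit with replicate number as a block and leaving out both replicates 4. Over the alternatives adjusted p ran from 0.0168 to 0.137. Its neighbour Gstm1 was at 41.0 to 46.5 FPKM in wild type hearts, compared with 33.3, 41.5, 43.1 and 65.8 FPKM across the knockouts (adjusted p = 0.844).

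Gstp1, the pi-class enzyme (chromosome 19, 4035407 to 4037985), measured 111, 125, 113 and 124 FPKM across the wild type hearts, compared with 103, 96.3, 94.8 and 98.4 FPKM across the knockouts, again with no overlap. The fall was 1.21-fold (log2 change -0.27 ± 0.07, adjusted p = 0.0401). It was lost without wild type replicates 1 to 4 (adjusted p = 0.0504, 0.126, 0.0703 and 0.0967) and without knockout replicate 2 or 3 (0.0991 and 0.0948). A fit without the trend option (0.0505), the Ddx3y covariate (0.0735) and leaving out both replicates 4 (0.0826) also ended it. A fit with replicate number as a block ended it too, and adjusted p ran from 0.0256 to 0.126 over the alternatives. Gsta4, which clears the lipid peroxidation product hydroxynonenal, was at 42.5 ± 2.76 and 43.1 ± 3.88 FPKM, with a 95% interval of the log2 change from -0.17 to 0.21. The mu-class and pi-class genes have close paralogs beside them in the genome, among which the authors' quantification could have divided reads, so the values of Gstm1, Gstm2 and Gstp1 are uncertain.

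**Figure D3:**
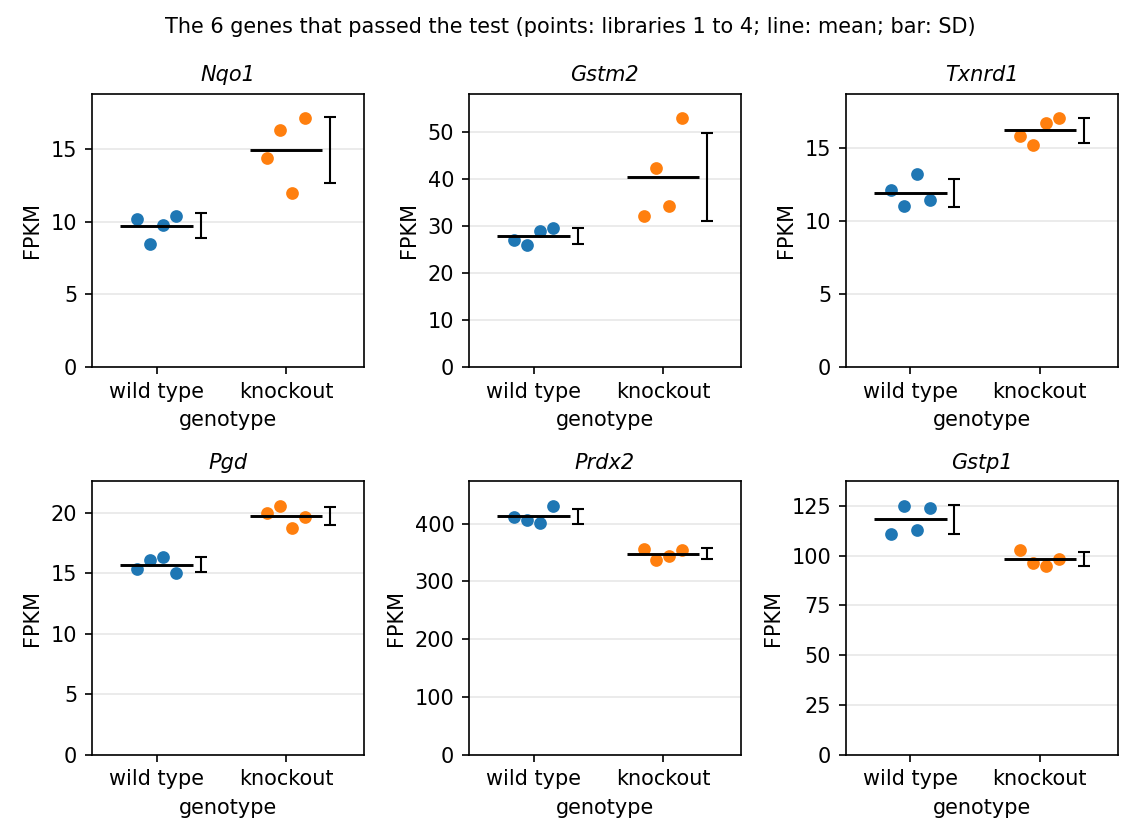
FPKM on linear axes from 0 of the 6 called genes in 4 wild type (blue) and 4 knockout (orange) heart libraries; points are replicates 1 to 4 from left to right, the line is the mean and the bar the SD. In all 6 panels the groups are separate, with means of 9.71 and 15 FPKM for Nqo1 and of 413 and 348 FPKM for Prdx2.

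Of the genes that supply NADPH, 1 of 5 rose and the others did not pass the test. Pgd, the second NADPH-forming enzyme of the pentose phosphate pathway (chromosome 4, 149149991 to 149166771), measured 15.4, 16.1, 16.4 and 15 FPKM across the wild type hearts, compared with 20, 20.6, 18.8 and 19.7 FPKM across the knockouts. These 2 narrow groups were well apart, with a rise of 1.26-fold (log2 change 0.31 ± 0.07, adjusted p = 0.0195). The call was lost without wild type replicate 1, 2 or 4 (adjusted p = 0.0504, 0.0568 and 0.0539). It was also lost without knockout replicate 2 (0.0604) or both replicates 4 (0.0511), and with replicate number as a block. The log2 changes in the fits without these samples were 0.29 to 0.32, and adjusted p over the alternatives ran from 0.0128 to 0.0758. G6pdx, the enzyme before it, was the lowest of the 38 genes at 2.45 to 3.40 FPKM in wild type and 2.95 to 4.07 FPKM in knockout hearts (log2 change 0.17 ± 0.11, adjusted p = 0.318). Taldo1 and Tkt belong to the non-oxidative branch of the same pathway. Taldo1 was at 75.0 to 80.3 FPKM in wild type and 68.0 to 74.5 FPKM in knockout hearts, without overlap, and did not pass the test (log2 change -0.13 ± 0.07, adjusted p = 0.224). Tkt was at 12.1 ± 1.28 and 13.4 ± 2.79 FPKM (adjusted p = 0.627), and Me1, the cytosolic malic enzyme, at 36.1 ± 4.58 and 37.9 ± 4.51 FPKM (adjusted p = 0.715).

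**Figure D4:**
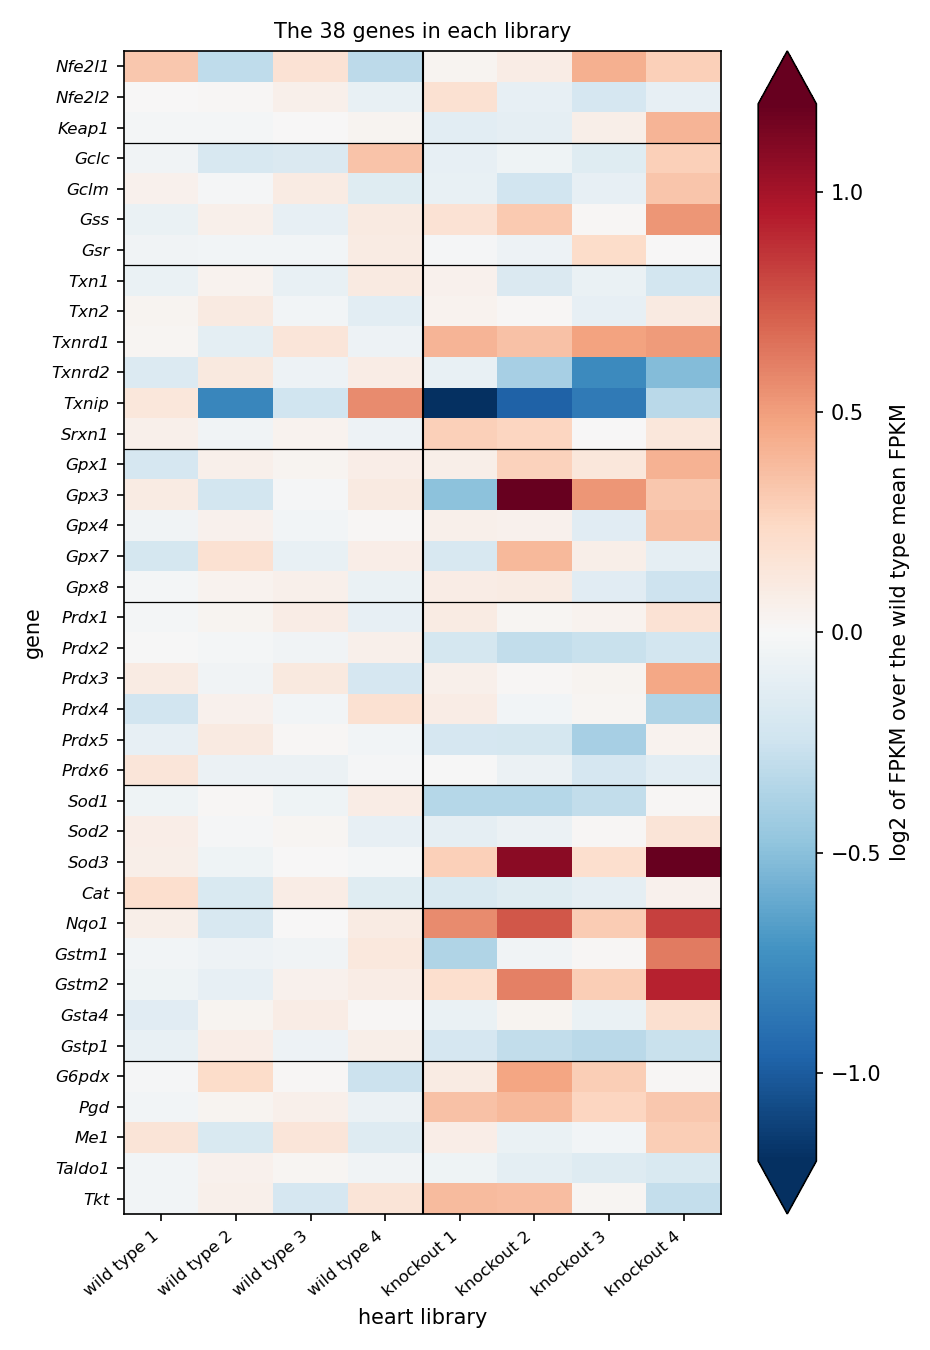
Heat map of the 38 genes (rows, in blocks by role) in the 8 heart libraries (columns), coloured by log2 of FPKM over the wild type mean FPKM, red above and blue below. The rows of Txnrd1, Nqo1 and Pgd are red and those of Prdx2 and Gstp1 blue in all 4 knockout columns, while Gpx3, Sod3 and Gstm1 differ between knockout columns.

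The list of other genes of the pathway held regulators, heme and thiol enzymes, glutathione transferases and further NADPH sources, with 76 of 87 measured rows tested. Of these, 7 rose and 2 fell, while 67 were not called, against 12.2% called among all genes, and their median log2 change was -0.03. The largest rises were those of Maff, which encodes a small MAF protein that pairs with NRF2 or with its competitor BACH1, and of Osgin1, an oxidative stress-induced growth inhibitor. Maff measured 2.73, 3.51, 2.79 and 3.11 FPKM across the wild type hearts, compared with 10.3, 7.93, 6.41 and 8.66 FPKM across the knockouts (log2 change 1.2 ± 0.13, adjusted p = 0.00105). Osgin1 was at 0.645 to 0.935 FPKM in wild type and 1.67 to 3.71 FPKM in knockout hearts (log2 change 1.04 ± 0.16, adjusted p = 0.00458). Its wild type mean of 0.796 FPKM was under the filter of 1 FPKM, which it passed only through its knockout values (mean 2.75 FPKM). It was not tested with the filter at 5 FPKM. Maff and Osgin1 were both called with any 1 library left out.

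Mafk, another small MAF gene, rose 1.33-fold from 8.59 ± 0.733 to 11.4 ± 0.877 FPKM (log2 change 0.38 ± 0.08, adjusted p = 0.0212). Its call was lost without wild type replicate 2, 3 or 4 (adjusted p = 0.0641, 0.0606 and 0.0586) or without both replicates 4 (0.0638). It was also lost with replicate number as a block, and adjusted p ranged from 0.0153 to 0.0782 over the alternatives. Exons of Mafk overlap those of Tmem184a on the opposite strand. Nnt, the mitochondrial transhydrogenase that makes NADPH from NADH, rose 1.43-fold from 74.5 ± 7.94 to 106 ± 11.8 FPKM (log2 change 0.51 ± 0.10, adjusted p = 0.0141). Without wild type replicate 2 its adjusted p was 0.0504, the highest over its alternatives, of which the lowest was 0.0102. The C57BL/6J substrain carries an Nnt allele that lacks several exons, and the labels name the strain only as C57BL/6. Me2, a mitochondrial malic enzyme, was at 3.14 to 4.33 FPKM in wild type hearts, compared with 10.1, 8.70, 7.14 and 4.28 FPKM across the knockouts, with knockout replicate 4 inside the wild type range (log2 change 0.80 ± 0.21, adjusted p = 0.0359). The call of Me2 was lost without wild type replicates 1 to 4 (adjusted p = 0.0798, 0.0988, 0.0599 and 0.0743) and knockout replicate 2 or 3 (0.0925 and 0.0744). It was also lost with no filter (0.0670) and with replicate number as a block, with a range from 0.0024 to 0.0988 over the alternatives.

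Glrx, the cytosolic glutaredoxin that removes glutathione from proteins, rose 1.23-fold from 33.3 ± 0.964 to 41.0 ± 3.34 FPKM (adjusted p = 0.0369). This call was lost without wild type replicates 1 to 4 (adjusted p = 0.0799, 0.0818, 0.0808 and 0.0864) and knockout replicate 2 or 3 (0.0859 and 0.0672), without both replicates 4 (0.0799) and with the Ddx3y covariate (0.0657). Replicate number as a block also ended it, and the adjusted p of Glrx ran from 0.0172 to 0.0963 over the alternatives. Akr1b8, an aldo-keto reductase with close paralogs, was at 2.70 to 3.84 FPKM in wild type and 4.47 to 9.55 FPKM in knockout hearts (log2 change 0.71 ± 0.20, adjusted p = 0.0485). Its call was lost in all omissions but that of knockout replicate 4, with adjusted p of 0.106, 0.105, 0.0872 and 0.0912 without wild type replicates 1 to 4 and 0.0759, 0.0976 and 0.0543 without knockout replicates 1 to 3. It was also lost with no filter (0.0876), with median ratio scaling (0.0507) and without the robust (0.0501) or the trend option. Replicate number as a block ended it too, and adjusted p ranged from 0.0142 to 0.106. Both genes that fell were glutathione transferases, Gstt1 and Gstp2. Gstt1 was at 5.04 to 6.67 FPKM in wild type and 3.46 to 3.80 FPKM in knockout hearts (log2 change -0.54 ± 0.09, adjusted p = 0.00644). Gstp2, the neighbour and close copy of Gstp1, was at 36.2 to 46.9 and 28.7 to 32.0 FPKM (log2 change -0.47 ± 0.09, adjusted p = 0.0119). Both were called with any 1 library left out. With replicate number as a block Gstp2 was not called (adjusted p = 0.0516), and reads may have been divided between Gstp1 and Gstp2. Leaving out wild type replicate 2 changed the number of these pathway genes that rose to 2, and wild type replicate 3 or 4 to 3. Without wild type replicate 1 or knockout replicate 2 it was 4, without knockout replicate 3 it was 6 and without knockout replicate 1 it was 8. The number that fell ran from 2 to 4, the latter without knockout replicate 4.

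**Figure D5:**
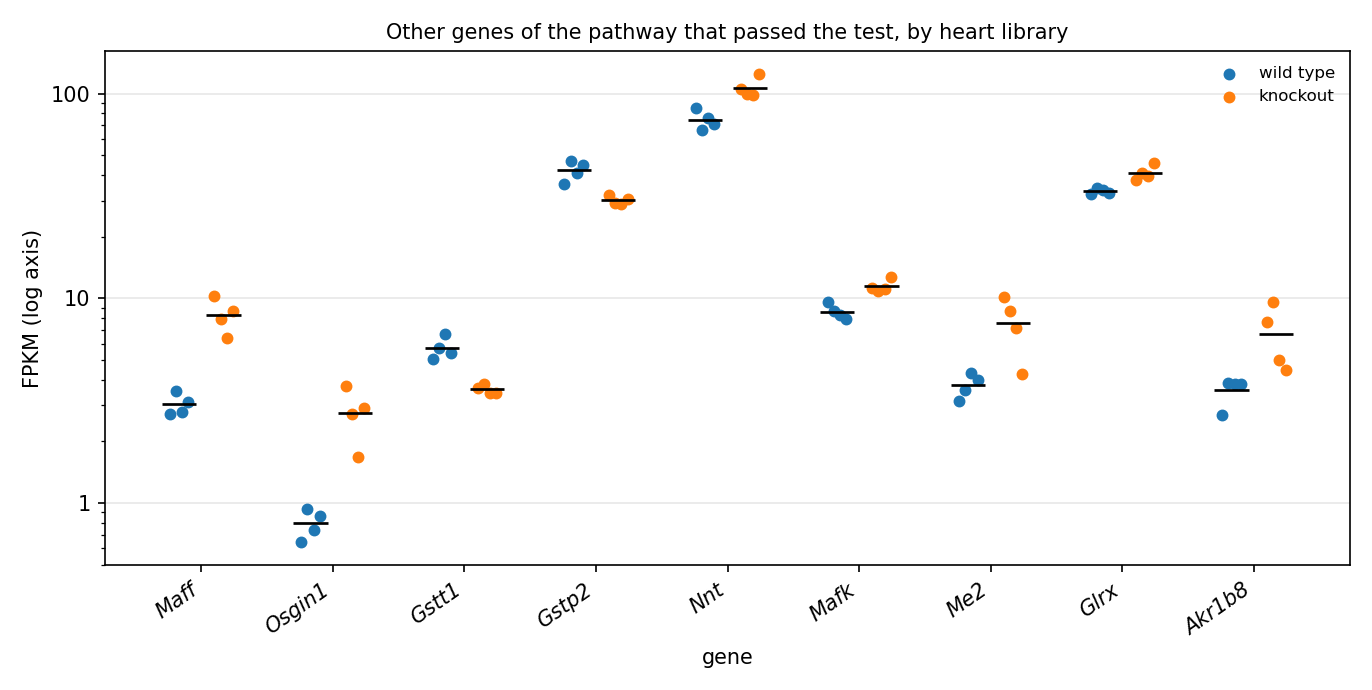
Levels (FPKM, log axis) of the 9 called genes from the list of other pathway genes; each point is a library, wild type in blue and knockout in orange, and black lines are means of 4. Maff rises from a mean of 3.04 to 8.32 FPKM, Gstt1 and Gstp2 are lower in every knockout heart, and Me2 is the gene of these 9 whose groups overlap.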

How the data were processed

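Total RNA of whole hearts was sequenced in 8 libraries after library preparation with an Illumina TruSeq kit, per the labels' protocols. Per the submitters' processing notes, the tools were TopHat2 and Cufflinks and the build was mm10. The sources used here give neither the annotation nor the strandedness. The deposited unit is not named and was read as FPKM, the unit Cufflinks writes, since its values are decimals that start at 0. The deposited columns share 1 distribution, as quantile normalisation gives (each of the 39 highest ranks has the same value in every column), so depth and counting error cannot be recovered. No columns were identical.

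Knockout was compared with wild type on log2(FPKM + 1) for genes whose mean reached 1 FPKM, in limma 3.58.1 under R 4.3.3 (lmFit, eBayes with trend and robust options, no covariate), with Benjamini-Hochberg adjustment over 11390 genes and a threshold of 0.05. The 95% intervals use limma's moderated degrees of freedom and are not adjusted. The fit was tested on simulated data. Every gene of the set may be named, and of the other pathway genes those called. The genes, lists and alternatives were chosen with earlier results of these data known. Coordinates came from GENCODE M21 (mm10), which held all 38 genes, and sequences from RefSeq (GRCm38.p6), where Gclc, Gsr, Prdx6, Sod3 and Gsta4 had no entry. Python 3.11.15, pandas 2.3.3 and matplotlib 3.10.9 were used. Alternatives changed the pseudocount, filter, scaling, variance model, sample weights, threshold, covariate and replicate block, or left out samples. No count model was fitted to these normalised values.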

Additional observations from a re-analysis of the deposited data

Results flagged for a closer look

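In 5 of 94 groups of 4 libraries, 1 library lay far from the other 3, with a gap above the 95% critical value of Dixon's test. Chance alone gives about 1 in 20. In the knockout group, knockout replicate 4 was at 185 FPKM for Prdx3 against 136 to 140 FPKM in the others, and at 429 FPKM for Sod1 against 334 to 346 FPKM. In the wild type group, wild type replicate 4 was at 8.22 FPKM for Gsr against 7.47 to 7.54 FPKM, and at 46.5 FPKM for Gstm1 against 41.0 to 41.8 FPKM. Wild type replicate 4 is also the library with airway markers. For Akr1b8, wild type replicate 1 was at 2.70 FPKM against 3.81 to 3.84 FPKM.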

How the results depend on the processing

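Of the 6 called genes among the 38 and the 9 called among the other pathway genes, none reversed its direction under any alternative that was run. Leaving out 1 library moved the count of all called genes from 1385 to between 574 (without wild type replicate 2) and 1819 (without knockout replicate 1), with 288 to 931 raised and 286 to 888 lowered. For the 38 genes the ranges were 1 to 5 raised and 0 to 3 lowered, and for the other pathway genes 2 to 8 raised and 2 to 4 lowered. A minimum change of 1.5-fold left 577 of all genes (313 raised, 264 lowered), 0 raised and 0 lowered of the 38, and 4 raised and 0 lowered of the other pathway genes. At an adjusted p under 0.1 there were 2372 of all genes (1197 raised, 1175 lowered) and 11 raised and 9 lowered of the other pathway genes. With array weights, 1055 of all genes, 4 of the 38 and 6 of the other pathway genes were lowered. Without the trend option, or with the Ddx3y covariate, 1 of the 38 was lowered, and with a filter at 5 FPKM 1 of the other pathway genes was lowered. Without both replicates 4, 467 of all genes and 2 of the 38 were raised. The causes of the other differences were not tested. The replicate block gave 613 called genes (323 raised, 290 lowered), with 2 raised and 0 lowered of the 38 and 3 raised and 1 lowered of the other pathway genes. Same-numbered samples had correlations of deviations of -0.23, 0.01, 0.10 and -0.10. With 4 samples per group, these values cannot decide whether the numbers pair the samples. Only the samples numbered 3 correlated best with their own number. Knockout replicates 1, 2 and 4 correlated best with wild type replicates 2, 4 and 1 (0.27, 0.15 and 0.25). Depth is unknown, so counting error could not be given for any value.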

Other observations

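Ratios of paired genes within a library, chosen after the values were seen and given without a test, separated the groups for 5 of 9 pairs. The share over all possible pairs was not computed, so this count cannot be set against a background. Txnrd1, Gstm2, Prdx2, Pgd and Taldo1 already had no overlap on their own, and the ratios that hold them are no separate support. Sod1 over Sod2 separated only by 3.67 against 3.68. Txnrd1 over Txnrd2 was 0.482 to 0.658 in wild type and 0.797 to 1.35 in knockout hearts. Gstm2 over Gstm1 was 0.634 to 0.697 and 0.793 to 1.02, although both genes varied widely among the knockout hearts. Prdx1 over Prdx2 was 0.558 to 0.680 and 0.773 to 0.819, Pgd over Taldo1 0.200 to 0.209 and 0.268 to 0.290, and Sod1 over Sod2 3.68 to 4.62 and 3.28 to 3.67. The ratios of Txn1 to Txn2, Gclm to Gclc, Gpx1 to Gpx4 and Nfe2l2 to Keap1 overlapped between the groups.

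Knockout replicate 4 held the highest of the 8 values for 15 of the 38 genes (39.5%), against 25.0% of all tested genes, and the lowest for 5 (13.2%), against 23.8%. The spread within a group was larger in the knockout than in the wild type hearts for 26 of the 38 genes (68.4%), against 66.3% of all tested genes. The median coefficient of variation of the 38 genes was 6.71% in wild type and 12.5% in knockout hearts, against 9.93% and 13.3% over all tested genes.

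Levels summed by role overlapped between the groups for all 8 roles, and each sum leans on its most abundant genes. The thioredoxin system summed to 454 to 677 FPKM in wild type and 392 to 497 FPKM in knockout hearts. The glutathione peroxidases summed to 590 to 618 and 577 to 880 FPKM, and the superoxide dismutases with catalase to 603 to 626 and 508 to 640 FPKM. The peroxiredoxins summed to 1180 to 1220 and 1070 to 1220 FPKM, and the detoxifying enzymes to a mean of 241 and 242 FPKM. For NADPH supply the sums were 138 to 149 and 139 to 152 FPKM, for glutathione synthesis and recycling 32.8 to 34.1 and 32.5 to 41.1 FPKM, and for the regulators 110 to 152 and 133 to 157 FPKM.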
